A study of Mus musculus with 8 samples.

Results

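Livers of 8 C57BL/6 mice, 4 labelled HuR WT and 4 labelled HuR KO, were compared by the number each animal carries in its sample name. These numbers form a pair of series: 3 of the 8 libraries end in a number from 98 to 100 (WT replicate 3, KO replicate 3 and KO replicate 4), and the other 5 end in a 4-digit number (WT replicates 1, 2 and 4 and KO replicates 1 and 2). Libraries were placed by that number alone, and the genotype label was held as a covariate in the main comparison between the series. Elavl1 encodes HuR, which binds AU-rich stretches of mRNA. No treatment is labelled for any animal, and each mouse gave 1 library, from liver stored frozen. What separates the series is not stated. Nor do the sources used here give the extent of the Elavl1 deletion, the cell types that carry it, or how old the animals were and when their livers were taken.

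The liver changes its transcript levels over the day and with feeding. The circadian clock of hepatocytes is a feedback loop in which Arntl (BMAL1), with Clock or Npas2 as partner, switches on the Per, Cry and Nr1d genes, whose products in turn restrain Arntl and its partners. Hepatocytes also secrete most plasma proteins through the endoplasmic reticulum (ER), whose chaperones are raised by the unfolded protein response, and they set sterol uptake and synthesis through SREBP2, a transcription factor that the Insig proteins hold in the ER membrane.

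Total gene counts ran from 18649618 to 31249286 per library and did not separate the series (exact permutation of the series labels within genotype, two-sided p = 0.5, with 24 regroupings and a smallest possible p of 0.0417). Albumin, the main secreted product of hepatocytes, took 9.31% ± 0.307 (SD, n = 3) of counts in the 98 to 100 series and 10.36% ± 0.53 (SD, n = 5) in the 4-digit series. The values did not overlap between the series (exact permutation p = 0.0833). All libraries had the Xist and Y-linked counts of female mice. Elavl1 stood at 45.6 to 56.0 CPM (counts scaled to library size) in the libraries labelled KO and at 32.6 to 46.6 in those labelled WT, and so was no lower under the KO label. A count over the whole gene does not show whether part of it was deleted, so the genotypes are given as labelled. The single WT library of the 98 to 100 series stood apart: the root mean square log2 difference of WT replicate 3 from KO replicates 3 and 4 was 0.642 and 0.638, against 0.642 to 0.690 from the other WT libraries. In comparison, the WT libraries of the 4-digit series differed from each other by 0.551 to 0.628, KO replicates 3 and 4 by 0.528, and KO replicates 1 and 2 by 0.569. Across the series, KO replicate 1 differed from KO replicates 3 and 4 by 0.565 and 0.564, and KO replicate 2 by 0.601 and 0.6145. KO replicate 1 thus lay no nearer to KO replicate 2 of its own series than to the KO libraries of the other.

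Of 15547 genes tested, 197 (1.27%) were higher and 138 (0.888%) were lower in the 98 to 100 series at an edgeR quasi-likelihood adjusted p under 0.05 (Benjamini-Hochberg over all genes tested). Most differences were modest, with a median of 1.46-fold among the genes that were higher and 1.498-fold among those that were lower, and 23 and 17 of them reached 2-fold. The median log2 difference of all genes was 0.00. In 168 of the 197 and 128 of the 138, the values of the series did not overlap, against 5.38% of all genes with the 3 libraries above the other 5 and 5.37% with the 3 below. The call uses these same values and so favours genes without overlap. At an unadjusted p under 0.05 there were 2494 genes. The counts rest on particular libraries: without WT replicate 3 they fell to 31 and 25, without KO replicate 4 to 60 and 45, and without KO replicate 2 to 55 and 70, as the plot of genes called with each library left out shows. Without WT replicate 3, the series are compared among libraries labelled KO alone, 2 against 2, and the WT libraries add only to the estimate of spread. In each direction 17 genes stayed called whichever library was left out, among them Stard4, Insig1, Hyou1, Stip1, Coq10b, Ccnd1, Mup17 and Mup18 on the higher side and Npas2, Insig2, Cdkn1a, Ccn2, Clpx, Ethe1, Lyst and Ppp1r10 on the lower side. Every other gene described below as called, up to the closing observations, lost its call without at least 1 library.

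**Figure D1:**
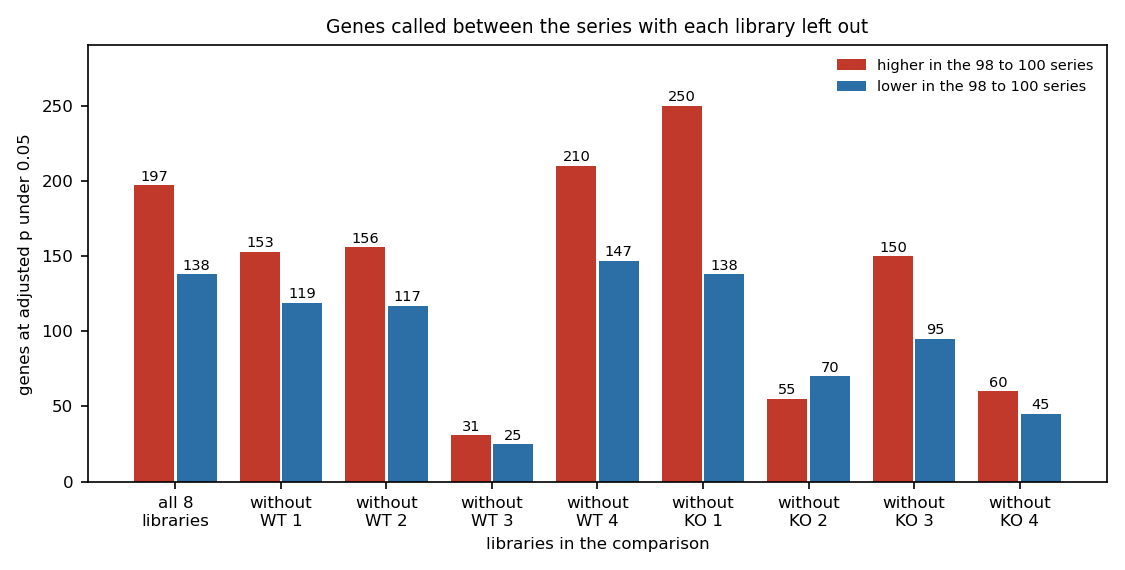
Number of genes at an adjusted p under 0.05 between the series (y axis) with all 8 libraries and with each library left out in turn (x axis), by direction. The smallest counts, 31 higher and 25 lower, came without WT replicate 3.

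Of the 335 genes called, 72 stood in at least 1 of 47 gene lists, and 27 of the lists held at least 1 of them. The lists with the most members higher were the unfolded protein response (12 of 30 tested), cytosolic chaperones (6 of 18), sterol synthesis and uptake (5 of 27), the interferon response (4 of 39) and growth hormone and sex-biased genes (4 of 57), and the list with the most members lower was the clock (4 of 27). Over all genes tested, 1.27% were higher and 0.888% lower, and these shares are the background for every list count given below. The other 20 lists had no member called by edgeR. Over their 338 distinct genes, 50 had an unadjusted p under 0.05, 12 were called by DESeq2 and 4 by limma-voom. Over all 15547 genes tested, 2494 had an unadjusted p under 0.05. Among these 15547, DESeq2 called 391 higher and 268 lower, and limma-voom 244 higher and 151 lower. These 20 lists include the markers of Kupffer cells, lymphocytes, endothelium, stellate cells and red blood cells, the acute phase, bile acid, lipoprotein and ribosomal protein genes and the transcripts of the mitochondrial chromosome.

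**Figure D2:**
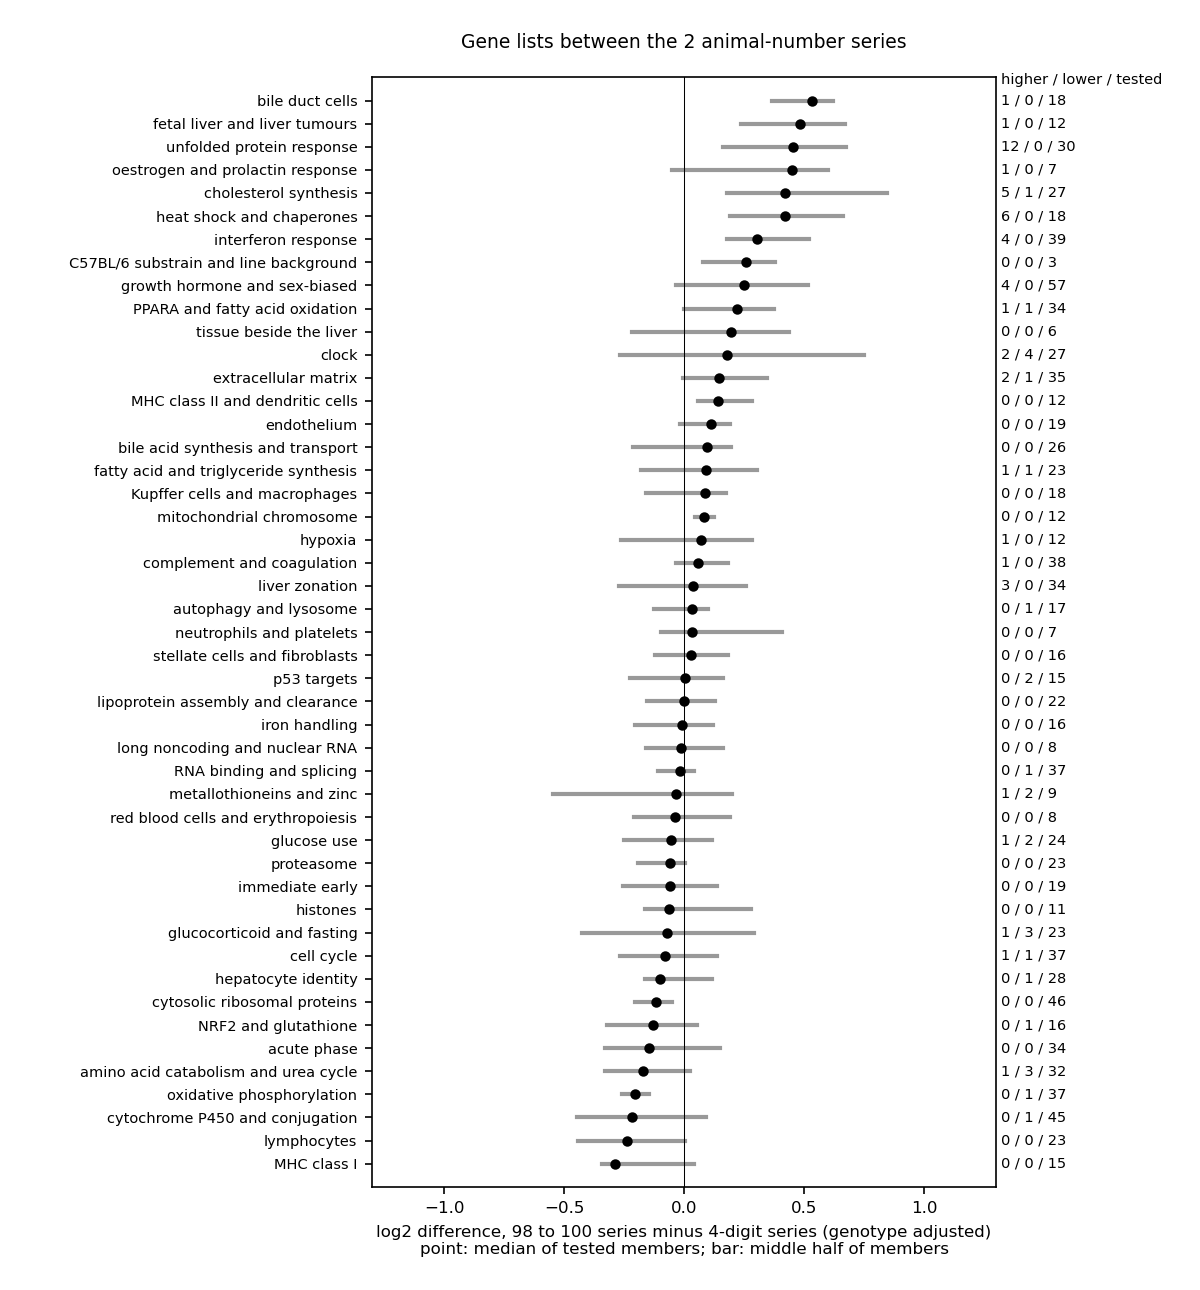
Median log2 difference between the series over the tested members of each gene list (point) with the interquartile range of the members (bar), on the x axis, for 47 lists on the y axis. Numbers at the right give the members higher, lower and tested. The unfolded protein response has 12 members higher of 30 tested and the clock 4 members lower of 27.

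Chaperones of the ER formed the largest group of genes that rose. Of 20 tested genes of ER folding and export, 11 were higher in the 98 to 100 series and none was lower. All 20 had a positive log2 difference, with a median of 0.51. Of all genes tested, 1.27% were higher and the median log2 difference was 0.00. The 11 were Hspa5, Hsp90b1, Pdia3, Pdia6, Dnajb11, Sdf2l1, Creld2, Hyou1, Manf, Canx and Syvn1, and the 9 others ran from 0.05 to 1.89 on the log2 scale. Trib3, a pseudokinase raised by the integrated stress response, was the only member called of the 10 genes of that branch, whose median was -0.09. The number of ER genes called depended on the library: 14 without KO replicate 1, 6 without KO replicate 2, 5 without KO replicate 4 and 1, Hyou1, without WT replicate 3, where the median of the 20 was 0.39.

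Because the ER genes moved together, their promoters are shown where they hold the ER stress element, the sequence known to be bound by NF-Y and ATF6: CCAAT, 9 bases of any kind, then CCACG, searched on both strands in RefSeq windows from 250 bases before to 50 bases after each start (build GRCm38.p6). Of the 11 genes called, 9 have a window and 6 of these hold the element; of the 9 not called, 9 have a window and 3 hold it. In all, 39 of 32851 windows (0.119%) hold it. Capitals mark the fixed bases of the element, which read CGTGG and ATTGG where it lies on the opposite strand, and each line runs 5′ to 3′ along the gene's own strand. Hspa5 is at chr2:34772005-34772063 (+), Hsp90b1 at chr10:86705513-86705676 (-), Pdia6 at chr12:17266471-17266529 (+), Creld2 at chr15:88819500-88819558 (+), Canx at chr11:50325780-50325838 (-) and Syvn1 at chr19:6046512-6046570 (+).
Hspa5: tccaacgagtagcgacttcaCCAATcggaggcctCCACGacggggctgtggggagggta
Hsp90b1: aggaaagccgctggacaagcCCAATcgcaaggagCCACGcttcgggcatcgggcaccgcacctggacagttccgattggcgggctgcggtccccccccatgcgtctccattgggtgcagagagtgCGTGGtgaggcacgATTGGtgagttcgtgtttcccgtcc
Pdia6: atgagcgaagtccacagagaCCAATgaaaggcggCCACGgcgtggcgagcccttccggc
Creld2: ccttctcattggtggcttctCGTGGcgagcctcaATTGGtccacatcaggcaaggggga
Canx: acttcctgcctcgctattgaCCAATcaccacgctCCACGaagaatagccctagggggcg
Syvn1: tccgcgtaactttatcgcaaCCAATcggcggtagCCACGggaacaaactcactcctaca
A match is a description of these letters and not a measured site. The window of Hsp90b1 holds the element in both orientations, the others shown hold it in 1.

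Hspa5 (BiP), the main ER chaperone of the HSP70 family, stood at 1266 CPM in WT replicate 3, 1025 in KO replicate 3 and 959 in KO replicate 4. In the 4-digit series it stood at 515, 591 and 631 CPM in WT replicates 1, 2 and 4 and at 729.6 and 633 in KO replicates 1 and 2. All 3 libraries of the 98 to 100 series were above the other 5, and the difference was 1.74-fold (log2 0.80 ± 0.12 SE, edgeR adjusted p = 0.00275). The call was lost without WT replicate 3 and in the libraries labelled KO alone, where the log2 differences were 0.54 and 0.53.

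Hyou1, an ER chaperone that serves as an exchange factor for Hspa5, had 230.3, 187 and 177 CPM in the 98 to 100 series (WT replicate 3, then KO replicates 3 and 4). It had 82.8, 91.7 and 101 CPM in the WT libraries of the 4-digit series and 122 and 103 in the KO libraries. The series did not overlap, and the log2 difference was 0.98 ± 0.12 SE (edgeR adjusted p = 0.000809), called also without each single library. Sdf2l1, a small ER protein found with Hspa5 complexes, had 17.5, 12.9 and 11.6 CPM against 5.13 to 8.33 in the 4-digit series, a log2 difference of 1.09 ± 0.18 SE (edgeR adjusted p = 0.0057). Without WT replicate 3 the log2 difference of Sdf2l1 was 0.71 and was not called. Creld2, a secreted ER protein raised by ER stress, had the largest difference of the ER genes called, with 53.1, 33.4 and 34.6 CPM against 12.01 to 22.3 (log2 1.23 ± 0.22 SE, edgeR adjusted p = 0.031). That call needed WT replicates 2, 3 and 4 and KO replicates 2 and 4.

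Pdia6, a disulfide isomerase, had 160.3, 148 and 130.4 CPM against 84.0 to 111, with a log2 difference of 0.59 ± 0.10 SE (edgeR adjusted p = 0.00701). Without WT replicate 3 it was 0.55, nearly as large, and was not called. WT replicate 3 was the highest of the 8 libraries for all 5 of these ER genes. The transcription factor Xbp1, whose spliced form drives ER chaperone genes, had 189 to 209.7 CPM in the 98 to 100 series and 158 to 193 in the 4-digit series, and was not called (log2 0.21 ± 0.09 SE, edgeR adjusted p = 0.265). Gene counts do not tell the spliced from the unspliced form.

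**Figure D3:**
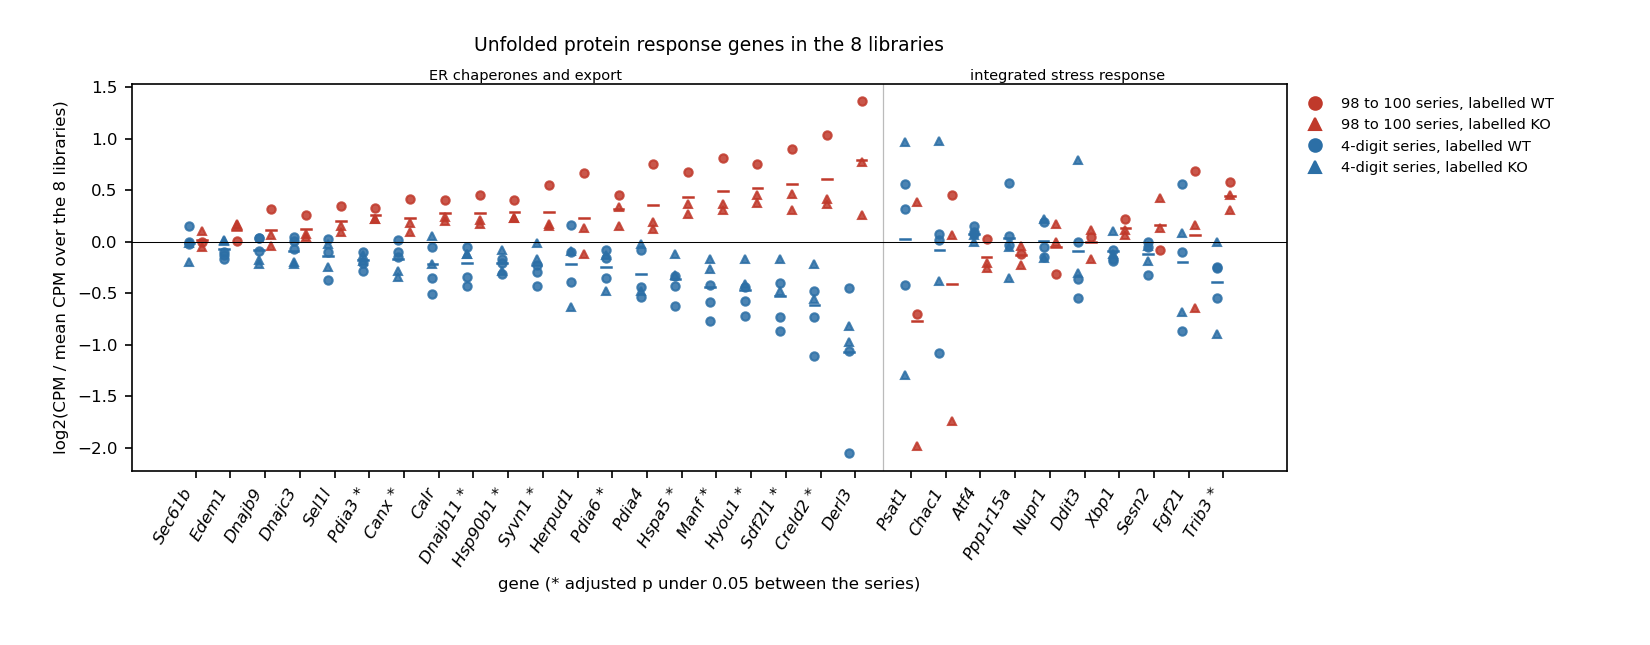
Level of each tested unfolded protein response gene in the 8 libraries, as log2 of CPM over the gene's mean CPM (y axis), grouped by role and ordered by log2 difference between the series (x axis). Circles are libraries labelled WT and triangles those labelled KO, red for the 98 to 100 series and blue for the 4-digit series, with a dash at each series' mean. For 16 of the 20 ER folding and export genes, all 3 red points lie above all 5 blue points, against 5.38% of all genes tested.

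Chaperones of the cytosol were also higher. Of 18 tested heat shock and chaperone genes, 6 were called higher (Stip1, Hsp90aa1, Hsp90ab1, Hspa8, Dnajb1 and Dnaja1) and none lower, with a median log2 difference of 0.42. The difference was positive in 16 of the 18, and the lowest was -0.79. Stip1, the scaffold that joins HSP70 to HSP90, had 82.4 CPM in WT replicate 3, 82.8 in KO replicate 3 and 103 in KO replicate 4. It had 38.6, 43.6 and 47.9 CPM in the WT libraries and 58.4 and 55.0 in the KO libraries of the 4-digit series. The series did not overlap (log2 0.81 ± 0.10 SE, edgeR adjusted p = 0.000523), and the call held without each single library.

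Hsp90aa1, the stress-responsive cytosolic HSP90, had 60.4, 52.8 and 71.7 CPM against 21.7 to 44.4 in the 4-digit series (log2 0.87 ± 0.17 SE, edgeR adjusted p = 0.0291), a call lost without any 1 of WT replicates 2, 3 and 4 and KO replicates 2 and 4. Hsph1, an exchange factor of the same system, showed the largest difference of the list without passing the test, with 127, 120.3 and 169 CPM against 19.6 to 82.1 (log2 1.34 ± 0.36 SE, edgeR adjusted p = 0.164). Within the 4-digit series the KO libraries had 82.1 and 72.8 CPM of Hsph1 and the WT libraries 19.6, 35.0 and 49.1. With WT replicate 3, KO replicate 2 or KO replicate 4 omitted, 1 member of this list was called, and with WT replicate 2 omitted 2 were.

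Clock genes moved in both directions. Of 27 tested, 4 were lower in the 98 to 100 series, among them Npas2, Cry1 and Arntl, and Per2 and Coq10b were higher. All 5 tested activators of the loop had negative log2 differences, with a median of -0.60, while 7 of 10 repressors had positive ones, with a median of 0.71. With WT replicate 3 omitted, Npas2 was the 1 member lower, with KO replicate 2 or 4 omitted 2 members were lower, and with WT replicate 2 omitted 4 were higher.

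Npas2 (chr1:39193731-39363236, mm10), the partner of Arntl, fell furthest of all genes named here. It had 1.99 CPM in WT replicate 3, 4.27 in KO replicate 3 and 4.09 in KO replicate 4. In the 4-digit series it had 10.7, 8.87 and 12.3 CPM in the WT libraries and 15.6 and 14.3 in the KO libraries. Every library of the 98 to 100 series lay below the other 5, and the level was 4.14-fold lower (log2 -2.05 ± 0.18 SE, edgeR adjusted p = 4.11e-05).

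Arntl had 14.2, 21.0 and 11.4 CPM in the 98 to 100 series (WT replicate 3, then KO replicates 3 and 4), and 40.5, 26.8 and 35.8 in the WT and 35.2 and 38.5 in the KO libraries of the 4-digit series. The series did not overlap (log2 -1.22 ± 0.20 SE, edgeR adjusted p = 0.0174). Cry1, a repressor, was at 10.4, 13.2 and 9.17 CPM against 20.2 to 42.4, again with no overlap (log2 -1.56 ± 0.24 SE, edgeR adjusted p = 0.0177). Both calls were lost without WT replicate 3 or KO replicate 2, and that of Cry1 also without KO replicate 4.

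Per2, a repressor, ran the other way, with 43.1, 25.7 and 32.3 CPM in the 98 to 100 series. The 5 libraries of the 4-digit series lay close together at 14.7 to 18.7 CPM, below all 3 (log2 1.02 ± 0.13 SE, edgeR adjusted p = 0.000987), and the call was lost without WT replicate 3. Coq10b, which encodes a mitochondrial coenzyme Q binding protein and stands in the list as a rhythmic output, had 27.4, 23.2 and 24.5 CPM against 9.21 to 13.6, with no overlap (log2 1.16 ± 0.15 SE, edgeR adjusted p = 0.000706).

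Some clock genes also varied widely within the 4-digit series. Dbp, a PAR bZIP factor driven directly by the clock, had 49.1, 18.1 and 41.3 CPM in the 98 to 100 series. In the 4-digit series its level was 8.45, 22.6 and 2.66 CPM in WT replicates 1, 2 and 4 and 1.24 and 1.14 in KO replicates 1 and 2, a 19.8-fold range. Its log2 difference of 3.37 ± 0.95 SE did not pass the test (edgeR adjusted p = 0.184). Per3 had 34.1, 11.9 and 21.8 CPM against 19.04, 27.5, 4.49, 5.07 and 2.64 in the same order, with a 10.4-fold range within the 4-digit series, and was not called (edgeR adjusted p = 0.348).

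WT replicate 2 was the highest library of the 4-digit series for Dbp, Per3 and Ciart, and also for Nr1d1, Nr1d2, Tef and Usp2. Across the 27 clock genes, the highest over the lowest library came to a median of 2 among the 5 libraries of the 4-digit series and 1.5 among the 3 of the other, and passed 5-fold for 3 genes and for none. The larger number of libraries in the 4-digit series widens its range. The RefSeq promoter windows held an E-box (CACGTG, which reads the same on both strands) for 2 of the 4 called clock genes with a window and 5 of the 19 others, against 7.15% of all windows. A clock gene was counted if any of its windows held the E-box, so the counts per gene and the share per window are unlike measures.

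**Figure D4:**
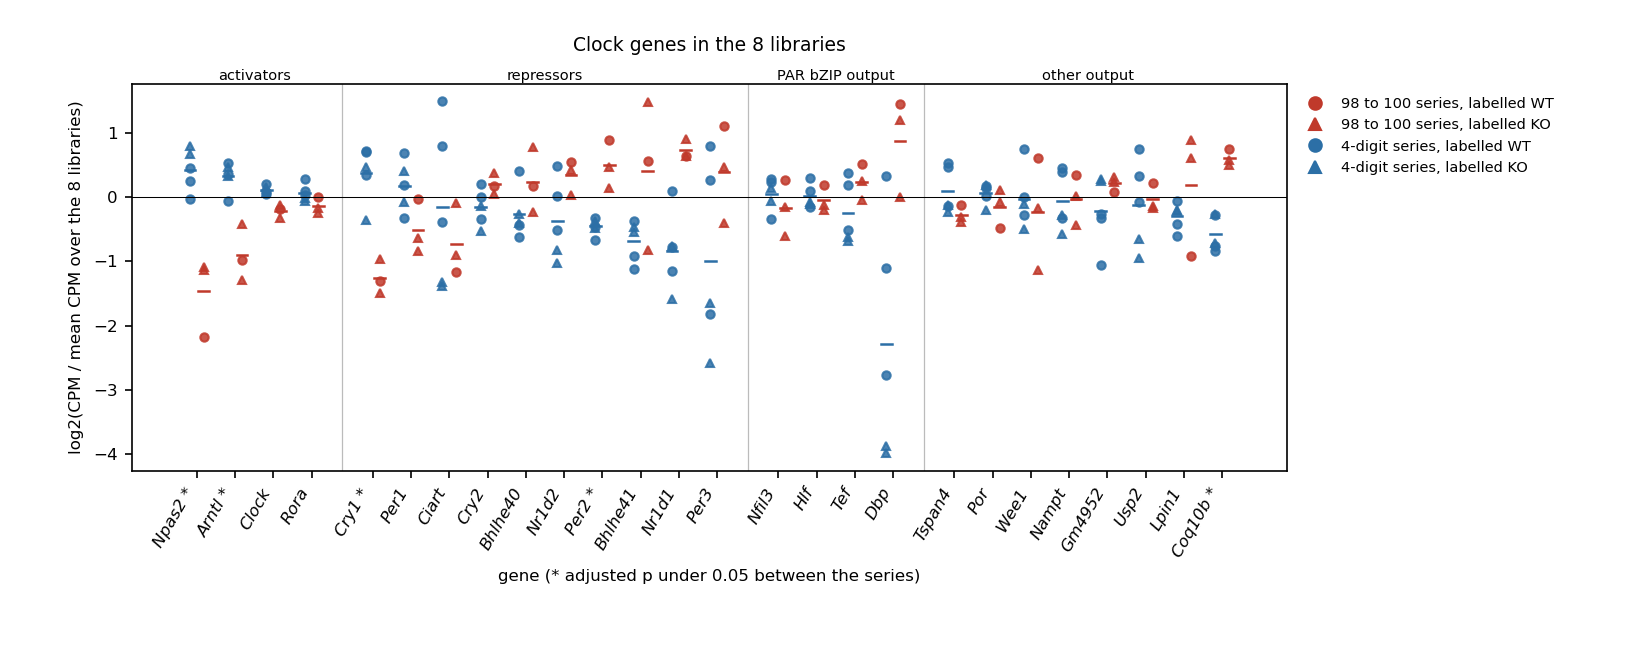
Level of clock genes in the 8 libraries, as log2 of CPM over the gene's mean CPM (y axis), grouped by role in the loop (x axis), with symbols and colours as in the plot of the unfolded protein response. Npas2, Arntl and Cry1 lie lower in all 3 libraries of the 98 to 100 series, Per2 and Coq10b higher, and Dbp spreads 19.8-fold within the 4-digit series.

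Of 27 tested genes of sterol synthesis and uptake, 5 rose, among them Stard4, Insig1, Sc5d and Acat2, and Insig2 fell, with a median of 0.42 and 22 positive. Stard4, a cytosolic sterol carrier, had 107, 61.5 and 65.7 CPM against 33.7 to 43.1 (log2 1.10 ± 0.12 SE, edgeR adjusted p = 0.000523). Insig1, itself a target of SREBP2, had 88.4 CPM in WT replicate 3 against 49.9 to 61.1 in the other WT libraries, and 48.2 and 65.5 in KO replicates 3 and 4 against 25.6 and 23.8. Within each genotype label the series did not overlap (log2 0.99 ± 0.13 SE, edgeR adjusted p = 0.00139), although they did when the labels were pooled.

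Insig2, the paralogue of Insig1 that is not raised by SREBP2, was lower, with 384, 375 and 313 CPM against 894, 747 and 1135 in the WT and 610.3 and 711 in the KO libraries of the 4-digit series. The series did not overlap (log2 -1.08 ± 0.14 SE, edgeR adjusted p = 0.00128), and the call held without each single library. The synthesis enzyme Sqle had the largest difference of the list, with 27.4, 15.8 and 14.1 CPM against 4.20 to 18.6, and was not called (log2 1.45 ± 0.32 SE, edgeR adjusted p = 0.0677). With WT replicate 1, WT replicate 3, KO replicate 3 or KO replicate 4 omitted, 3 members were higher, and with WT replicate 4 omitted 9 were.

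**Figure D5:**
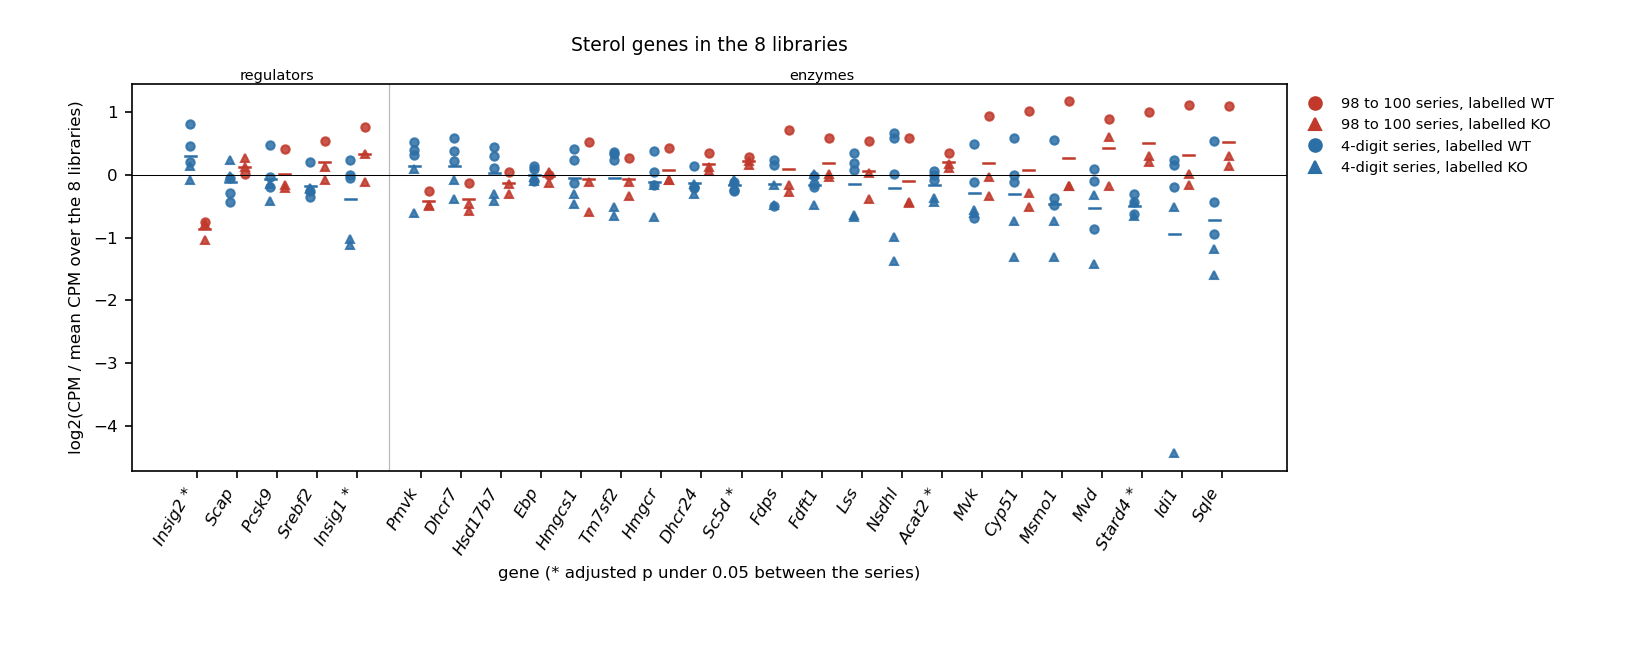
Level of sterol genes in the 8 libraries, as log2 of CPM over the gene's mean CPM (y axis), grouped into regulators and enzymes (x axis), with symbols and colours as in the plot of the unfolded protein response. Stard4 lies higher and Insig2 lower in all 3 libraries of the 98 to 100 series.

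Major urinary protein genes, which encode pheromone carriers controlled by growth hormone, gave the largest rise among the called genes that met the rule for named genes. Mup18 (chr4:61670177-61674136, mm10) had 11.9 CPM in WT replicate 3 and 5.16 and 4.55 in KO replicates 3 and 4. It had 2.40, 3.28 and 3.99 CPM in the WT and 0.736 and 0.833 in the KO libraries of the 4-digit series, a 4.78-fold difference (log2 2.26 ± 0.24 SE, edgeR adjusted p = 0.000177). Mup17 had 39.9, 13.6 and 10.9 CPM against 13.1, 16.7 and 16.4 in the WT and 3.06 and 2.60 in the KO libraries (log2 1.76 ± 0.17 SE, edgeR adjusted p = 6.09e-05). Both were also lower in the libraries labelled KO, and neither series difference was called without the genotype covariate, where the log2 differences were 1.07 for Mup17 and 1.71 for Mup18. The Mup genes are near-identical copies, so how reads were split among them is uncertain.

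Of 57 tested growth hormone and sex-biased genes, Igf1, Hao2, Selenbp2 and Nudt7 were higher and none was lower, and all 4 calls were lost without WT replicate 3. Igf1, the growth factor that the liver releases under growth hormone, had 627, 541 and 526.3 CPM against 351 to 445 (log2 0.49 ± 0.10 SE, edgeR adjusted p = 0.0239), and its call was lost also without KO replicate 2 or 4. Of the 24 genes known to be higher in female liver, 23 had a positive difference with a median of 0.49, but only Hao2, a peroxisomal hydroxy acid oxidase, was called (45.7, 60.1 and 52.6 CPM against 19.5 to 36.1, log2 0.73 ± 0.16 SE, edgeR adjusted p = 0.043), a call that needed WT replicates 1 and 3 and all 4 KO libraries. The 20 genes known to be higher in male liver had a median of -0.24, with Selenbp2 and Nudt7 called as higher.

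Interferon response genes had a median of 0.31, with 34 of 39 positive and 4 called: Gbp7, Stat2, Ifit1 and Igtp. Stat2, which carries the type I interferon signal, had 128, 102 and 106 CPM against 80.3 to 93.2 (log2 0.41 ± 0.09 SE, edgeR adjusted p = 0.0231). Ifit1, an antiviral RNA-binding protein, had 29.3 CPM in WT replicate 3 but 9.93 and 10.5 in KO replicates 3 and 4, where the other WT libraries had 13.8 to 15.6 and the other KO libraries 7.74 and 9.09 (log2 0.62 ± 0.15 SE, edgeR adjusted p = 0.0402). All 4 calls were lost without WT replicate 3 (where 1 other member was called) and without KO replicate 4. With KO replicate 2 omitted 1 member was called, with WT replicate 4 omitted 2, and with KO replicate 1 omitted 6.

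Genes of glucose use were called in both directions. Ppp1r3b, which brings protein phosphatase 1 to glycogen, was at 267, 348 and 300.1 CPM against 456 to 538, with no overlap (log2 -0.73 ± 0.11 SE, edgeR adjusted p = 0.00192). Gys2, the liver glycogen synthase, was higher, with 163, 124 and 164 CPM against 94.8 to 121 (log2 0.48 ± 0.11 SE, edgeR adjusted p = 0.029), and Khk, which phosphorylates fructose, was lower, with 206, 262 and 229 CPM against 302 to 469 (log2 -0.60 ± 0.14 SE, edgeR adjusted p = 0.0384). They are the 3 members called of 24 tested glucose genes, and all 3 calls were lost without WT replicate 3. Those of Gys2 and Khk also needed WT replicate 2 and KO replicates 2 and 4, that of Gys2 WT replicate 1 and that of Khk WT replicate 4.

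Among 23 fasting and glucocorticoid genes, Ppargc1a, the coactivator that promotes gluconeogenesis and mitochondrial genes, was higher, with 28.9, 32.6 and 30.1 CPM against 15.4 to 24.3 (log2 0.71 ± 0.14 SE, edgeR adjusted p = 0.0187), a call that needed each of the 4 KO libraries. Cdkn1a, Mt1 and Slc37a4 were lower, and Cdkn1a alone stayed called when WT replicate 1, 2 or 3 or KO replicate 2 was omitted. Cdkn1a, the p21 inhibitor of the cell cycle, had 15.6, 32.5 and 24.7 CPM against 41.9 to 67.2 (log2 -1.47 ± 0.19 SE, edgeR adjusted p = 0.00754) and was called without each single library. Mt1, a metallothionein, had 184, 433 and 232 CPM against 489 to 757 (log2 -1.33 ± 0.23 SE, edgeR adjusted p = 0.0298), and that call needed WT replicates 1, 2 and 3 and KO replicates 1 and 2. Ccnd1, the cyclin that opens the cell cycle, was higher, with 70.2, 81.6 and 86.0 CPM against 22.9 to 57.2 (log2 1.06 ± 0.15 SE, edgeR adjusted p = 0.00743). Of the 37 cell cycle genes tested, Ccnd1 and Cdkn1a were called and no S or M phase gene was.

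The 37 oxidative phosphorylation genes of the nucleus all had negative differences, between -0.37 and -0.01, with a median of -0.20. Cyc1, the cytochrome c1 of complex III, was called (146, 162 and 166 CPM against 185 to 209.9, log2 -0.37 ± 0.09 SE, edgeR adjusted p = 0.0349), and that call needed WT replicate 3 and KO replicates 2, 3 and 4. The 12 transcripts of the mitochondrial chromosome had a median of 0.08. The share of counts taken by all genes of that chromosome did not differ beyond the spread (exact permutation p = 0.333). Clpx, a subunit of the mitochondrial matrix protease, was lower, with 201, 266 and 223 CPM against 389.6, 402 and 538 in the WT and 496 and 523 in the KO libraries (log2 -1.09 ± 0.12 SE, edgeR adjusted p = 0.000177). Ethe1, the mitochondrial persulfide dioxygenase, was lower as well, with 26.9, 33.8 and 38.7 CPM against 46.7 to 69.4 (log2 -0.87 ± 0.10 SE, edgeR adjusted p = 0.000177).

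Some genes differed by genotype label and by series. H19, a fetal noncoding RNA, had 57.5 and 51.2 CPM in KO replicates 3 and 4 and 27.1 and 33.0 in KO replicates 1 and 2. In the libraries labelled WT it had 5.76 CPM in replicate 3 and 2.48 to 4.44 in the others, so that each genotype showed the higher value in the 98 to 100 series (log2 0.87 ± 0.15 SE, edgeR adjusted p = 0.0094). Spp1 (osteopontin), made by bile duct cells, had 194 and 210.3 CPM against 124 and 135 in KO libraries and 55.1 against 33.6 to 46.0 in WT libraries (log2 0.58 ± 0.10 SE, edgeR adjusted p = 0.00782). Both calls were lost without WT replicate 3.

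Spp1 and H19 were the only members called of their lists, 18 bile duct and 12 fetal liver genes, whose medians were 0.53 and 0.49. The summed level of the 18 bile duct markers was 473 and 481 CPM in KO replicates 3 and 4 against 379 and 393 in KO replicates 1 and 2, and 239 in WT replicate 3 against 212 to 223 in the other WT libraries. Within each genotype label these sums were thus higher in the 98 to 100 series, with no overlap. They include Spp1, so they do not stand apart from its call. Spp1 alone gave 55.1 of the 239 CPM in WT replicate 3 and 37.7 of the 223 CPM in WT replicate 4. The separation of the sums among the WT libraries rests on that gene. Summed markers of Kupffer cells, lymphocytes, neutrophils and platelets, and stellate cells overlapped between the series among the KO libraries, and those of red blood cells among the WT libraries. Dendritic cell markers were higher in KO replicates 3 and 4 (372 and 458 CPM against 258 and 293) but lower in WT replicate 3 (284 against 336 to 528). Endothelial markers had 870.0 and 859 CPM against 859 and 793 in the KO libraries and 839 against 731 to 821 in the WT libraries. In bulk tissue, fewer cells of a type and less RNA per cell cannot be told apart. For tissue beside the liver the sums were 72.8 and 74.7 CPM against 64.5 and 71.7 in the KO libraries and 119 against 53.5 to 74.4 in the WT libraries, with no overlap within a label and with 12 of 28 markers at 0 in all libraries, among them Cpb1, Prss1 and Pnlip of the pancreas. Most of the sum for tissue beside the liver came from 1 gene, Fabp2, with 107 of the 119 CPM in WT replicate 3. Fabp2 overlapped between the series in the KO libraries (55.6 and 59.8 CPM against 50.3 and 59.0). It was not called (edgeR adjusted p = 0.296). The part of all these markers in the differences above was not tested.

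Of 35 extracellular matrix genes, Col3a1 and Col6a3 were higher and Ccn2 lower. Ccn2, a matricellular growth factor, had 13.4, 20.1 and 14.9 CPM against 20.4 to 35.0 (log2 -0.90 ± 0.13 SE, edgeR adjusted p = 0.00162), and was called without each single library. Both collagens were higher in libraries labelled KO as well, and their calls were lost without WT replicate 3, that of Col3a1 also without KO replicate 2. Col3a1 had 61.7 and 57.5 CPM in KO replicates 3 and 4, 47.0 and 38.02 in KO replicates 1 and 2, 36.4 in WT replicate 3 and 20.2 to 26.8 in the other WT libraries (log2 0.54 ± 0.11 SE, edgeR adjusted p = 0.016).

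Among the called genes that met the rule for named genes, those with the largest or most significant differences outside these lists were varied in function. Ppp1r10, which anchors protein phosphatase 1 in the nucleus, had 38.02 CPM in WT replicate 3 against 68.6 to 80.2 in the other WT libraries, and 26.1 and 18.3 in KO replicates 3 and 4 against 50.9 and 49.0 (log2 -1.07 ± 0.12 SE, edgeR adjusted p = 0.000177). Lyst, a regulator of lysosome traffic, had 42.9, 31.4 and 33.4 CPM against 51.8 to 85.6 (log2 -0.86 ± 0.09 SE, edgeR adjusted p = 0.000177), with no overlap. Both held without each single library.

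Slc34a2, a sodium-phosphate cotransporter, had 5.79, 5.12 and 3.87 CPM against 8.57 to 15.7 (log2 -1.15 ± 0.16 SE, edgeR adjusted p = 0.00174). Cidec, a lipid droplet protein, had 2.75, 2.21 and 2.67 CPM against 5.05 to 8.66 (2.29-fold lower, edgeR adjusted p = 0.0123). Arid3a, a DNA-binding protein, was higher, with 5.66, 4.92 and 4.66 CPM against 1.48 to 2.33 in the WT and 2.44 and 1.318 in the KO libraries (log2 1.46 ± 0.25 SE, edgeR adjusted p = 0.00716). None of the 3 overlapped between the series, and all 3 calls were lost without WT replicate 3. The others with the largest differences were Insc and Zc3h6 on the lower side and Stap1, Ms4a6d, Tmtc4 and Tbx3os1 on the higher side, and their calls needed both WT replicate 3 and KO replicate 4.

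The series difference was compared between the genotype labels by the interaction of genotype and series. Of 15547 genes 3 (0.0193%) passed at an edgeR adjusted p under 0.05, and 984 at an unadjusted p under 0.05. They were Alas1, H2-Q1 and Wsb1, and the WT side of each rests on the single WT library of the 98 to 100 series. Alas1, the rate-limiting enzyme of haem synthesis, had 854 CPM in WT replicate 3 against 289 to 408 in the other WT libraries, and 724 and 682 CPM in KO replicates 3 and 4 against 876 and 828 in KO replicates 1 and 2 (interaction log2 -1.52 ± 0.23 SE, edgeR adjusted p = 0.038). The WT library thus lay among the KO libraries for Alas1. The number of such genes was 39 without WT replicate 4 and 0 by edgeR without KO replicate 1, 2 or 3 (873, 1030 and 679 at an unadjusted p under 0.05). All 335 genes called between the series had the same direction in both genotype labels, which the fit with a shared series term favours.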

How the data were processed

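Frozen livers gave RNA (Macherey-Nagel Nucleospin kit) for NEBNext Ultra Directional mRNA libraries, per the labels' protocols. Per the submitters' processing notes, the tools were bcl2fastq 2.19.1, GSNAP and featureCounts 1.5.1, and the build mm10 (GRCm38). The authors deposited raw counts for 45706 genes of Ensembl 81, counted with strand setting 2 and a minimum mapping quality of 1, per the file headers. The 92 ERCC spike-in entries were all at 0 counts and were left out. Symbols were found for 45143 identifiers. Every pair of libraries differed beyond sampling noise (chi-square per degree of freedom of at least 15.6).

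The test was edgeR 4.0.16 in R 4.3.3 (filterByExpr with a minimum count of 10, TMM scaling, robust quasi-likelihood fit of genotype plus series with 5 residual degrees of freedom). Calls are at a Benjamini-Hochberg adjusted p under 0.05 over all genes tested. CPM values are scaled by TMM and are not per gene length. SEs come from the F statistic. DESeq2 1.42.0 and limma 3.58.1 served as alternatives, beside other scalings, filters, designs and the omission of each library. The comparison, the 47 gene lists (1073 genes) and the genes named were chosen with earlier results of these data known, and no set test was run. Lists are given as counts and medians. The rule for named genes took the 10 highest and 10 lowest log2 differences and the 5 smallest p in each direction, from called genes whose mean log2 CPM was above 1, whose series did not overlap in KO libraries and whose direction was the same in WT libraries, without predicted gene models, and up to 4 called members of each list (up to 2 by p where none was called, not all printed). Dbp, Per3, Hsph1, Sqle, Xbp1, Ciart, Nr1d1, Nr1d2, Tef and Usp2, the further called list members given by name, and the genes of the closing observations were picked once their values had been seen. Some list members are counted but not reported here by name or drawn. The script was tested on simulated data.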

Additional observations from a re-analysis of the deposited data

Results flagged for a closer look

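A genotype effect that differed between the series by the interaction test was found for Alas1 (-1.52 on the log2 scale, described above), Wsb1, a ubiquitin ligase adaptor (-1.62 ± 0.24 SE), and H2-Q1, an MHC class I gene with close copies (2.52 ± 0.37 SE), each at an edgeR adjusted p of 0.038. Wsb1 had 95.9 CPM in WT replicate 3 against 37.5 to 43.4 in the other WT libraries, and 45.9 and 64.8 in KO replicates 3 and 4 against 64.5 and 81.5. H2-Q1 had 7.35 CPM in WT replicate 3 against 10.3 to 17.1, and 18.5 and 16.8 in KO replicates 3 and 4 against 6.70 and 4.93.

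Dixon's ratio was examined in 129 sets of values, most within the 4-digit series and a few within 1 genotype label. In 6 of them 1 library stood far from the others, each time within the 4-digit series. Chance flags about 1 in 20. WT replicate 4 had the lowest total count of its series (18649618) and the highest levels of Hist1h2bc (66.1 CPM against 35.6 to 42.5) and Rplp1 (195 against 135 to 149). KO replicate 2 was lowest for Hnrnpl (109 CPM against 129.9 to 138), WT replicate 1 highest for Klf2 (18.2 against 12.7 to 13.98) and WT replicate 2 highest for Vegfa (155 against 138 to 142).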

How the results depend on the processing

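The counts of 197 genes higher and 138 lower kept within 1.5 times under RLE and upper quartile scaling, a filter of 1 CPM in all libraries, and limma-voom. They were 546 and 352 with no filter on low counts, 391 and 268 by DESeq2, 67 and 63 without the genotype covariate, 65 and 44 in the libraries labelled KO only, and 72 and 52 in those labelled WT only, where 1 library is set against 3. All 197 and 138 genes were among those called by DESeq2, and of the 75 named genes called none changed direction in any alternative run; over all 335, 1 gene did so under the replicate block. As a mean over the genotypes from the interaction fit, 288 were higher and 192 lower. Leaving out 1 library gave 31 to 250 higher and 25 to 147 lower. Genes with a genotype effect that differed between the series numbered 3 with all libraries, 0 by edgeR with the 1 CPM filter (751 at an unadjusted p under 0.05), 7 by limma-voom and 0 to 39 with 1 library left out. The interaction could not be fitted without WT replicate 3.

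With the replicate block, 2 genes were higher and 2 lower. Same-numbered libraries did not deviate together (correlations of -0.0036, -0.0059, 0.106 and -0.14). WT replicate 3 correlated best with KO replicate 4 rather than with its own number, and only number 4 spans the series. These deviations still hold the series difference, so they cannot show whether same-numbered libraries were paired. WT replicate 3 is the single WT library of the 98 to 100 series, so a property of that mouse and of its series cannot be told apart.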

Other observations

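Of the 34 genes called between the series and again without each single library, most stand in none of the gene lists, and those below were picked for that after their values were seen. Gpr146, a receptor linked to lipoprotein levels, had 68.0, 58.4 and 77.9 CPM in the 98 to 100 series and 35.2 to 42.9 in the 4-digit series (log2 0.83 ± 0.10 SE, edgeR adjusted p = 0.000523). Pdp2, a phosphatase that switches on pyruvate dehydrogenase, had 39.7, 51.4 and 48.8 CPM against 25.05 to 30.9 (log2 0.70 ± 0.11 SE, edgeR adjusted p = 0.00277). Itga8, an integrin of mesenchymal cells, had 14.1 CPM in WT replicate 3 against 7.46 to 8.70 and 20.9 and 22.99 in KO replicates 3 and 4 against 12.7 and 11.9 (log2 0.84 ± 0.12 SE, edgeR adjusted p = 0.00192). The series did not overlap in any of the 3.

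On the lower side, Avpr1a, the vasopressin receptor of hepatocytes, had 37.2, 33.9 and 39.1 CPM against 54.9 to 61.0 (log2 -0.68 ± 0.09 SE, edgeR adjusted p = 0.000808). Btg1, an antiproliferative regulator, had 51.7, 47.8 and 46.8 CPM against 73.2 to 85.9 (log2 -0.74 ± 0.09 SE, edgeR adjusted p = 0.0004). Ces1d, a carboxylesterase with close copies, had 916, 776 and 669 CPM against 1145 to 1695 (log2 -0.81 ± 0.12 SE, edgeR adjusted p = 0.00259). In these 3 genes too, every library of the 98 to 100 series lay below the other 5.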
